A study of Mus musculus with 9 samples.

Results

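Transposon insertion sites were examined in 42 genes for synaptic adhesion proteins, their scaffolds and other very long neuronal genes. The genes were taken by symbol from the deposited insertion table, in which Odz2 and Odz3 are older names of teneurin genes. Of the 42 genes, 41 had at least 1 listed position, out of 22353 gene symbols in the table, and Csmd2 is not analysed here. The question asked of them was whether they were hit in more tumours than their number of low-count positions gives, whether the arms differed, and whether the hits lay at positions that many animals share.

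The tumours were SHH medulloblastomas of Lazy Piggy mice, a cerebellar tumour driven by Sonic hedgehog signalling. All animals carried the Lazy Piggy genotype, a mobile element that joins a Sleeping Beauty (SB) and a piggyBac (PB) transposon. One arm was 72 animals with tamoxifen (TAM+), a drug commonly used to switch on an engineered enzyme, and the other was 47 animals without it (TAM-). The screen asked which genes maintain the tumour. The sample sheet lists chromosome 10 as local, taken here as the donor chromosome of the element, for 53 TAM+ and 37 TAM- animals, and chromosome 7 for 19 TAM+ and 10 TAM- animals. No comparison of arms used the 5 control tumours, the 9 control DNAs or 8 animals whose arm was missing or contradictory. No source used here gives other alleles, the strain, the age or the promoter behind each transposase. Each animal had IR libraries, amplified from the SB ends, JX libraries, from the boundary of both parts, and PB libraries, from the PB ends. Median counts per animal were 3115240 in TAM+ and 3143570 in TAM- for IR, 441808 and 287429 for JX, and 204964 and 216967 for PB. With the arms pooled, IR counts of single animals ran from 295999 to 6337624, JX counts from 116836 to 2025775 and PB counts from 1714 to 2853048. Animals are numbered within their arm, and coordinates are in mm9, without strand.

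Neurons join their partners through adhesion proteins that span the synaptic cleft. Presynaptic neurexins and LAR-type phosphatases bind postsynaptic neuroligins, LRRTM proteins and IL1RAPL1, and scaffolds such as Dlg2 and Magi2 hold the postsynaptic side together. Contactins, contactin-associated proteins, IgLON proteins, SynCAMs, NCAMs and teneurins act in axon guidance, myelination and synapse formation. Many of these genes have introns of unusual length, and a long gene offers more places for a transposon to land.

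The listed positions show that length. From the first to the last listed position inside the gene, the 41 genes spanned a median of 652 kb, from 1.86 kb in Lrrtm4 to 2253 kb in Dmd. The median of 20512 other genes was 14.9 kb. Of the 41 genes 24 spanned over 500 kb, against 172 of the other genes. Dmd, which encodes dystrophin, ranked 3 of all genes by this span, Cntnap2 ranked 4, Lrp1b ranked 5, Macrod2 ranked 6 and Csmd1 ranked 7.

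A site was called in an animal when positions merged within 10 bp reached 10 counts and 1% of the animal's highest site. Where several animals reached the call at 1 site, it was credited to the animal with the highest share alone. An animal is called hit at a gene below when a site there was credited to it. In IR 25 of 2311 called sites lay in the 41 genes (1.08%, 95% exact binomial interval 0.701 to 1.59%). In JX 123 of 6778 did (1.81%, 1.51 to 2.16%), and in PB 37 of 2910 did (1.27%, 0.897 to 1.75%). Positions that no animal reached a call at, called low-count positions here, stand for the length and mappability of a gene. Of the low-count positions the genes held 1.47% (IR), 1.44% (JX) and 1.25% (PB). The interval of called sites therefore included the low-count share in IR and PB and lay above it in JX. Without positions that many animals share, as defined further on, the JX share was 59 of 3663 sites (1.61%, 1.23 to 2.07%), and its interval included the corresponding low-count share of 1.41%. These intervals cover counting error only and treat sites as independent, although sites cluster in animals. TAM+ animal 3 and TAM- animal 16 each held 11 of the 123 JX sites. Amplified reads without molecular identifiers are not independent molecules either.

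In IR 17 of 41 genes had a called site, in JX 34 of 40 and in PB 25 of 41. The same held for 6.45% (IR), 19.2% (JX) and 8.44% (PB) of all genes with a low-count position. The genes also had more low-count positions, with medians of 301 (IR), 53.5 (JX) and 76 (PB), against 17, 4 and 6 over all genes. Summed over the genes, 23 hits of an animal were observed in IR where the low-count positions gave 33.4. In JX 110 were observed where they gave 92.9, and in PB 35 where they gave 36.0. Without the shared positions, 48 were observed in JX where 49.9 were given. Over all genes the observed hits were 0.944, 0.941 and 0.901 times those given by low-count positions in IR, JX and PB. Across the genes, the number of animals hit followed the number of low-count positions with Spearman's rho of 0.49 in IR (41 genes), 0.68 in JX (40 genes), and of 0.34 for PB (41 genes). This is a description across genes that share libraries and animals.

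**Figure D1:**
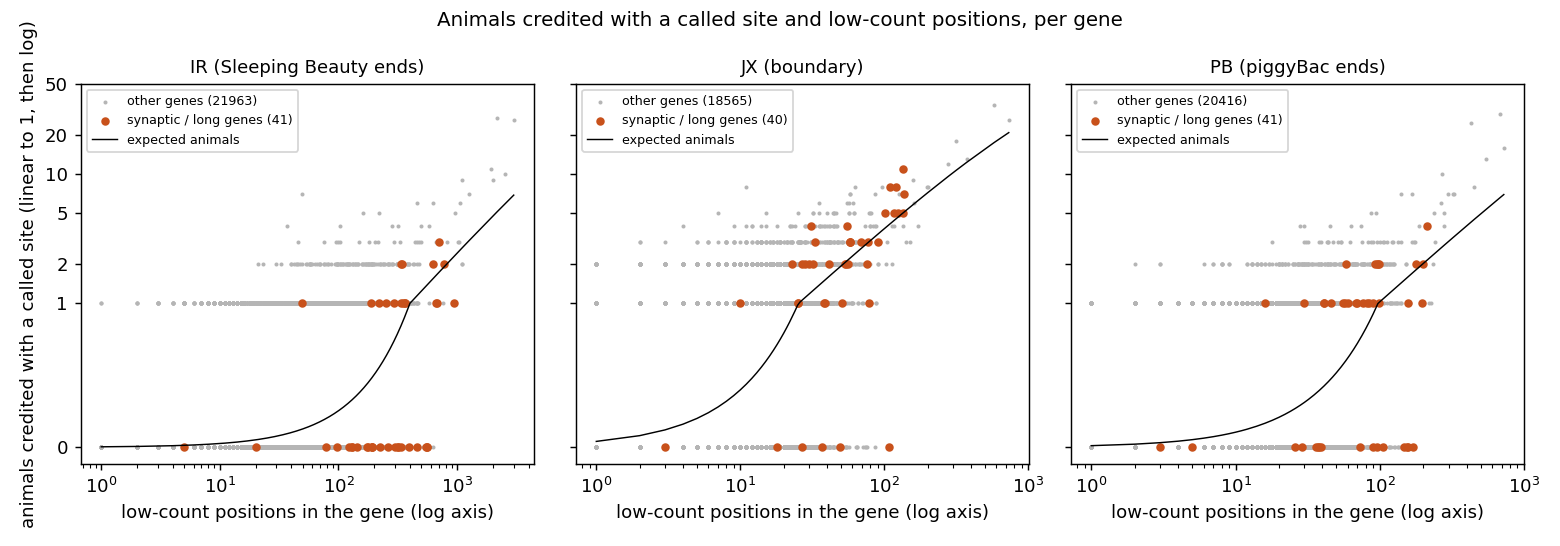
Each point is a gene, with its low-count positions on the horizontal log axis and the animals of both arms credited with a called site on the vertical axis, which is linear up to 1 and logarithmic above. The line is the number of animals that low-count positions give. The synaptic and long genes (orange) lie at the right end of the cloud of other genes (grey), near the line in each kind of library.

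Recurrence, that is hits in more animals than low-count positions give, was tested one-sided with an exact Poisson-binomial test, adjusted over all genes by the Benjamini-Hochberg method, at 0.05. It called 0 of the synaptic and long genes in each kind of library, beside 0.0182% of all 22004 genes (IR), 0.00537% of 18605 (JX) and 0.00978% of 20457 (PB). Without adjustment 0 of the 41 genes were under 0.05 in IR, 3 of 40 in JX and 0 of 41 in PB, where the shares over all genes were 1.5%, 2.39% and 1.29%. The 3 genes in JX were Rbfox1, Cntn1 and Dmd. With positions shared over animals left out, 0 of the genes were called in any kind, beside 0.00909%, 0.0055% and 0.00978% of all genes (IR, JX, PB). Then 0 of them were under 0.05 without adjustment either, beside 1.49%, 1.95% and 1.29% of all genes.

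No difference between the arms passed the two-sided Fisher's exact test at any of the genes. The test compared credited animals and took genes with 3 or more animals hit, which were 17 for JX and 1 each for IR and PB. None passed the adjusted threshold, nor did any of all 40, 244 and 55 genes tested in IR, JX and PB (0%). None had an unadjusted p under 0.05, beside 0%, 0.82% and 1.82% of those genes. Of the 17 genes tested in JX, 13 were hit in a larger share of TAM+ animals and 4 in a larger share of TAM- animals. Over all genes tested in JX, 69.3% were hit in a larger share of TAM+ animals. A gene hit in 3 animals cannot go below an unadjusted p of 0.0592, and one hit in 4 cannot go below 0.0225. The gene tested in IR, Rbfox1, had 3 animals and so could not pass, and the one in PB, Dlg2, had 4. For a gene hit in 8 animals the lowest Fisher p is 0.000401, before adjustment over the 244 genes of JX. Only Rbfox1, with 11, was hit in more than 8 animals there. The lack of calls therefore does not show that the arms are alike.

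Crediting leaves 1 animal per site, so the arms were also compared with every animal that reached the call counted, an alternative chosen after seeing the data. In JX 23 of the genes could then be tested, 9 of them with a larger share of TAM+ animals and 14 with a larger share of TAM- animals. Over all genes tested that way in JX, 44.0% had the larger share in TAM+. None of the synaptic and long genes passed the two-sided Fisher's exact test, adjusted or not. Of all genes 0% of 48 (IR), 0% of 1196 (JX) and 0% of 62 (PB) passed after adjustment, and 0%, 0.669% and 1.61% without it. The direction most of the genes took in JX therefore turned with the way animals were counted.

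Per animal, called sites in the genes were few in both arms. TAM+ animals had 0.25 ± 0.931 such IR sites and TAM- animals 0.149 ± 0.465 (SD, n = 72 and 47). In JX the means were 1.06 ± 1.99 in TAM+ and 1.0 ± 1.92 in TAM- animals, and in PB 0.333 ± 0.732 and 0.277 ± 0.682. At least 1 such site was credited to 9 TAM+ and 5 TAM- animals in IR, to 28 and 19 in JX, and to 15 and 9 in PB. With every animal that reached the call counted, 49 TAM+ (68.1%) and 36 TAM- animals (76.6%) had one in JX, and the means there were 7.07 ± 9.16 and 7.83 ± 9.02 sites. Outside shared positions the JX means were 0.403 ± 1.03 in TAM+ and 0.638 ± 1.79 in TAM- animals, and TAM- animal 16 held 11 of the 30 TAM- sites. In each kind of library the SD between animals was larger than the means themselves, and the difference of the means between arms was not tested. Within the 9 sequencing lanes, all of which held both arms, the TAM+ mean was higher in 4 lanes and lower in 3 for IR, and equal in the others, with sites as credited. It was higher in 4 and lower in 3 for JX, and higher in 6 and lower in 3 for PB. The 7 animals sequenced in 2 lanes counted in both of their lanes.

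A few animals held many of these sites. TAM+ animal 46 had 7 of the 25 IR sites and, with 334, the most called IR sites of any animal. Its 7 sites in the genes held 204 to 1496 IR counts each, with 0 JX and 0 PB counts within 500 bp. The animal also had the fewest IR counts of both arms, 295999, so few counts reached 1% of its highest site. Without it, 18 of 1977 called IR sites lay in the genes (0.910%), and the TAM+ mean was 0.155 ± 0.467 IR sites per animal (SD, n = 71). TAM+ animal 3 and TAM- animal 16 each had 11 of the 123 JX sites. TAM+ animal 3 also had the most called JX sites of all, 689.

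**Figure D2:**
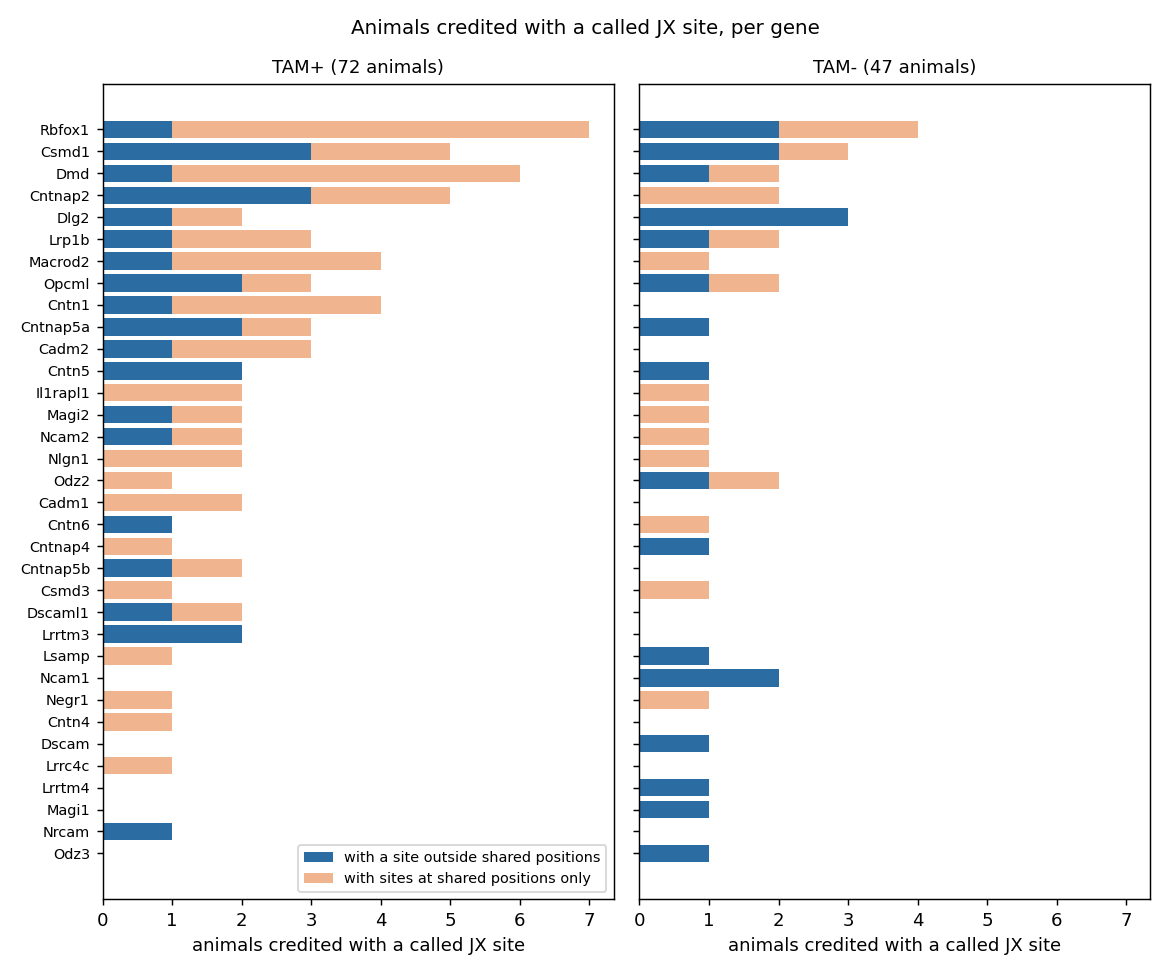
Bars give the number of animals credited with a called JX site in each gene with such a site, TAM+ on the left and TAM- on the right. The dark part counts animals with a site outside shared positions and the light part animals whose sites there are all at shared positions. Rbfox1 leads with 7 TAM+ and 4 TAM- animals, of which 1 and 2 remain outside shared positions.

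Many JX sites lay at positions that other animals list too. A position was called shared over animals when at least 3 animals listed it and no animal held over 50% of its counts. Of the 123 called JX sites in the genes, 64 were at shared positions (52.0%, 42.8 to 61.1%), beside 3115 of all 6778 called JX sites (46.0%). In IR 0 of 25 and in PB 0 of 37 were at shared positions, which allows shares of up to 13.7% and 9.49% (upper ends of the 95% exact binomial intervals). The 64 shared positions were listed by a median of 78.5 of the 119 animals, from 10 to 119. Of these, 23 were listed by over 100 animals and 7 by all 119. The other 59 were listed by a median of 2 animals, from 1 to 13.

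Control DNA libraries listed the same shared positions. Of the 64, 62 (96.9%) were listed by at least 1 of the 7 control DNAs with JX libraries, against 3 of the 59 others (5.08%). Over all called JX sites the shares were 94.4% at shared and 7.34% at other positions. The animal credited with a shared position was only the one with the highest share of it.

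**Figure D3:**
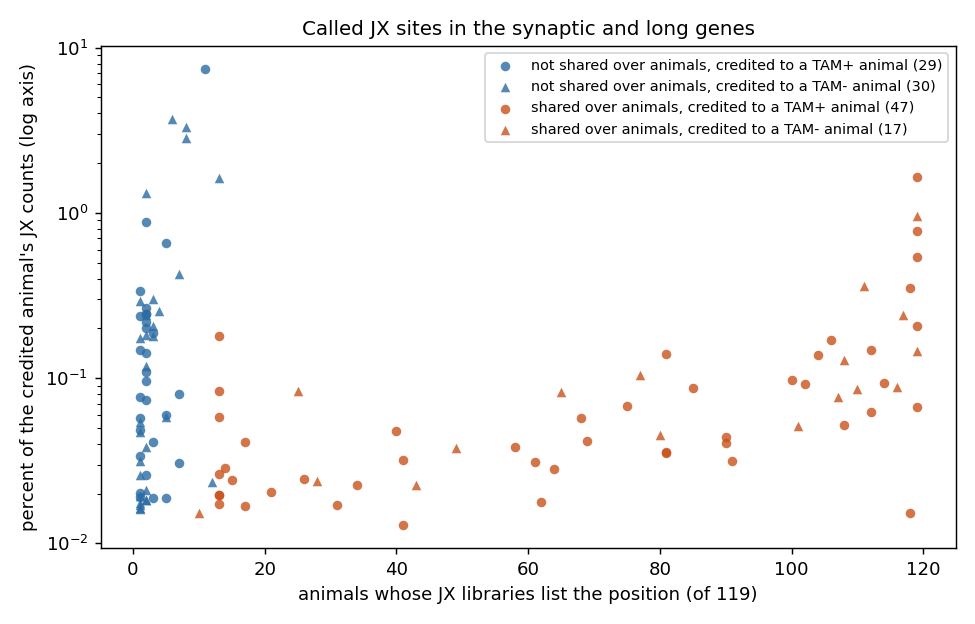
Each point is a called JX site in the genes, with the number of animals whose JX libraries list the position on the horizontal axis and its percent of the credited animal's JX counts on the vertical log axis. Sites not shared over animals (blue) were listed by 1 to 13 animals, and shared sites (orange) by 10 to 119.

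The shared position with the highest share lay at chr16:41497915, which the table places upstream of Lsamp, an IgLON adhesion protein, and which lies before the first position listed inside the gene, chr16:41533862. It was called in 45 TAM+ and 33 TAM- animals and listed in all 119. Its counts ran from 83 over a median of 1953 to 6094 in TAM+ animals, and from 152 over 2073 to 4594 in TAM- animals. The 5 control tumours had 11 to 2268 counts there, and the 7 control DNAs 0 to 2454, with a median of 160. The ranges of all of these groups overlapped.

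Nlgn1, which encodes the postsynaptic neurexin partner neuroligin 1, had 3 called JX sites, all at shared positions. At chr3:25861989 in intron 3 the count ran from 72 over a median of 910.5 to 3319 in TAM+ animals and from 221 over 1024 to 2300 in TAM- animals. At chr3:25656915 in intron 5 it ran from 48 over 989 to 1995 in TAM+ and from 144 over 1249 to 2440 in TAM- animals. These positions were called in 38 and 33 TAM+ animals and in 28 TAM- animals each. Both were listed by all 119 animals, and control DNAs reached 979 and 1606 counts at them.

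The next shared positions by number of animals called lay in Dmd, Cntnap2 and Cntn6. In intron 1 of Dmd, chrX:80243267 held 13 to 1319 counts in TAM+ (median 484.5) and 24 to 1625 in TAM- animals (median 442). In intron 21 of Cntnap2, a contactin-associated protein of myelinated axons, chr6:47173334 held 0 to 846 counts in TAM+ (median 227.5) and 56 to 685 in TAM- animals (median 270). In intron 1 of Cntn6, a contactin, chr6:104490170 held 0 to 650 counts in TAM+ (median 75.5) and 0 to 834 in TAM- animals (median 94). Each of the 3 was also listed by 5 of the 7 control DNAs and by all 5 control tumours.

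Some shared positions came in neighbouring pairs that split by sequencing lane. In 7 pairs, in Rbfox1, Macrod2 (2 pairs each), Cadm1, Csmd1 and Dmd, shared JX positions lay 115 to 117 bp apart. The first position of each pair was listed by all 13 animals of lane 1 (8 TAM+, 5 TAM-) and by 0 of the 106 other animals. The second was listed by 1 to 6 animals of lane 1 and by 28 to 106 of the others. Of the 64 shared positions in the genes 14 had a shared neighbour at 110 to 130 bp (21.9%), beside 232 of all 3115 shared JX positions (7.45%). Such a pair counted as 2 sites at the merging distance of 10 bp, and at 100 bp as well.

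The genes are described next by their roles, first those on the presynaptic side. Nrxn3, a presynaptic adhesion protein that binds neuroligins and LRRTMs, had IR sites in TAM+ animals 26 and 46, at 0.3% and 0.125% of their counts, and 0 called sites in JX and PB. Its low-count positions gave 4.07 JX animals, the highest number among the 6 genes with JX low-count positions but no JX call, which also held Nrxn2, Ptprd, Ntng1, Cntn2 and Cntn3. Ptprd, a LAR-type receptor phosphatase, had 1 PB site in a TAM+ animal. Nrxn2 had 0 called sites in any kind of library. Ntng1, netrin-G1, an axonal ligand of the protein that Lrrc4c encodes, had a PB site in intron 3 at 4.43% of the counts of TAM+ animal 20, with 0 IR and 0 JX counts within 500 bp.

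On the postsynaptic side, Lrrtm4, whose listed positions inside the gene spanned only 1.86 kb, had a site in TAM- animal 46. The table places this site 36.1 kb 3' of the gene, and it was called in all 3 kinds of library. It held 1.18% of the animal's IR counts, 0.208% of JX and 0.212% of PB. Lrrtm3, on chromosome 10, had a site in exon 3 in TAM+ animal 29, whose donor chromosome is also 10. It held 0.877% of JX counts and 0.797% of PB counts, and its IR counts were below the call (0.302%). The same animal listed 132 IR positions in Lrrtm3, against a median of 1 and at most 41 in the other animals, and these made up 50.2% of the low-count IR positions of the gene. Il1rapl1 had 3 JX sites, all at shared positions, and 1 PB site. Lrrc4c, which encodes the postsynaptic partner of netrin-G1, had 1 JX site at a shared position, and Nlgn2 had 0 called sites.

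Among the scaffolds, Dlg2, which encodes a postsynaptic scaffold of glutamate receptors, was hit in 2 TAM+ and 2 TAM- animals in PB, where its low-count positions gave 2.14 (unadjusted recurrence p = 0.165 by the exact Poisson-binomial test, Fisher's exact p = 0.647). In JX it was hit in 2 TAM+ and 3 TAM- animals where they gave 4.97, and in IR in 1 and 1 where they gave 1.93. The JX hit in TAM- animal 40, at chr7:99114259, held 110 counts, against 12478 at that position in 1 of the 5 control tumours. The PB hits in TAM- animal 22 and TAM+ animal 31 held 53 and 28 counts. The other PB hits were in TAM- animal 44 and TAM+ animal 15, whose donor chromosome 7 carries Dlg2. TAM- animal 44 listed 64 of the 211 low-count PB positions of the gene (30.3%). Listed positions in Dlg2 ran from chr7:98243342 to chr7:99596670. Its site with calls in all 3 kinds lay in intron 2 at chr7:99484265, in TAM- animal 44, whose donor chromosome is 7 too. That site held 16683 IR, 6058 JX and 33396 PB counts, or 1.12%, 1.31% and 1.47% of the animal's counts. Magi1, another scaffold, had a site in intron 1 in TAM- animal 27 at 3.10% of IR, 0.425% of JX and 0.355% of PB counts. Magi2 had 3 JX sites, 2 of them at shared positions, and 1 PB site.

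Among the contactins, cell surface proteins of axons, Cntn1 had the lowest Fisher p of the genes in JX. It was hit in 4 TAM+ and 0 TAM- animals (Fisher's exact p = 0.152, Benjamini-Hochberg adjusted p = 1), where low-count positions gave 1.22 in all. Of its 4 JX sites, which all lay in intron 1, 3 were at shared positions listed by 75, 81 and 104 animals. With every animal that reached the call counted, 16 TAM+ (22.2%) and 17 TAM- animals (36.2%) had a site in Cntn1 (Fisher's exact p = 0.142, adjusted p = 1), so the larger share moved to TAM-. The shared position chr15:91893370 alone was called in 12 TAM+ and 16 TAM- animals. The remaining site held 1479 counts (0.243%) in TAM+ animal 62. Summed over the gene, Cntn1 held a median of 117 JX counts in TAM+ (0 to 1507) and 114 in TAM- animals (0 to 515), so the arms overlapped.

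Cntn5 was hit outside shared positions in 2 animals in IR and in PB, and both were TAM+. In TAM+ animal 60 the site in intron 3 held 1.05% of IR counts and 0.387% of PB counts. Its IR position, chr9:10380374, was also listed in 1 of 7 control DNAs, with 4111 IR counts, against 19232 in the animal. In TAM+ animal 22 the site in intron 4 was called in all 3 kinds, at 0.642% of IR, 0.267% of JX and 0.42% of PB counts. Cntn5 was hit in JX in 2 TAM+ and 1 TAM- animals where its low-count positions gave 2.95. Cntn4 and Cntn6 had 1 and 2 JX sites, and Cntn2 and Cntn3 had 0 called sites in any kind.

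The site with the highest share of an animal's counts lay in a contactin-associated protein, Cntnap5b. In intron 17 at chr1:102279003, TAM+ animal 60 had 118542 IR counts (6.49%) and 74886 JX counts (7.45%). Its PB counts, 55 bp away, were 119338 (33.3%), the highest PB site of that animal. The IR position was listed by 12 animals in all and by 3 of 7 control DNAs, and the JX position by 11 animals and 4 control DNAs, where the highest control DNA counts were 426 (IR) and 471 (JX). Cntnap5a had a comparable site in intron 1 at chr1:117732658 in TAM- animal 42, with 66950 IR counts (1.75%), 51448 JX counts (3.70%) and 64679 PB counts (2.44%). Cntnap5a was hit in JX in 3 TAM+ and 1 TAM- animals where low-count positions gave 2.13.

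Cntnap2 was hit in JX in 5 TAM+ and 2 TAM- animals where its low-count positions gave 5.04. Outside shared positions 3 TAM+ and 0 TAM- animals remained, where 2.61 were given. Its listed positions ran from chr6:45014465 to chr6:47249006, and the site in TAM+ animal 49 at chr6:47210433 was called in IR (0.413%) and JX (0.0602%). Summed over the gene, JX counts ran from 1 over a median of 295 to 1691 in TAM+ and from 106 over 303 to 744 in TAM- animals. Cntnap4 had 2 JX sites, 1 of them shared.

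Among the DSCAM proteins, which serve self-recognition of neurites, Dscam had 3 IR sites in TAM+ animals 40 and 46 and 2 PB sites. Its site in intron 11 of TAM+ animal 40 held 0.516% of IR counts. Dscaml1 had 2 JX sites, 1 of them shared, and 1 PB site.

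Opcml, an IgLON protein, stood apart through a single animal. Of its 13 JX sites, 9 were in TAM- animal 16, all outside shared positions. This was the highest number of such sites of 1 animal in 1 gene away from its donor chromosome, among 2102 pairs of a gene and an animal in JX. The sites held 45 to 498 counts each, or 0.0164 to 0.182% of the animal's JX counts. Several called JX sites in 1 gene were not limited to Opcml in this animal. It also had 5 in Gm6936 and 4 in Trpm6, which are outside the set and away from its donor chromosome. By animals, Opcml was hit in JX in 3 TAM+ and 2 TAM- animals where low-count positions gave 4.66, so the exact recurrence test, which counts animals, did not call it (adjusted p = 1).

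That animal also listed 528 IR positions in Opcml, against a median of 4 and at most 24 in the other animals. In JX it listed 52 (others at most 12) and in PB 66 (others at most 10). The IR counts in the gene were spread thin: they summed to 34047, or 1.21% of the animal's IR counts, and the highest position had 1009. Of its IR positions on chromosome 9, 33.9% lay between 25 and 30 Mb, the window that holds Opcml, against a median of 3.92% and a highest value of 8.34% in the other 118 animals. In PB 38.0% lay there, against a median of 3.45% and a highest value of 28.6% in 117 animals with PB positions on the chromosome. The sheet lists chromosome 10, not 9, as local for this animal. In the gene 240 of its IR positions were listed in the orientation of Opcml and 288 against it.

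**Figure D4:**
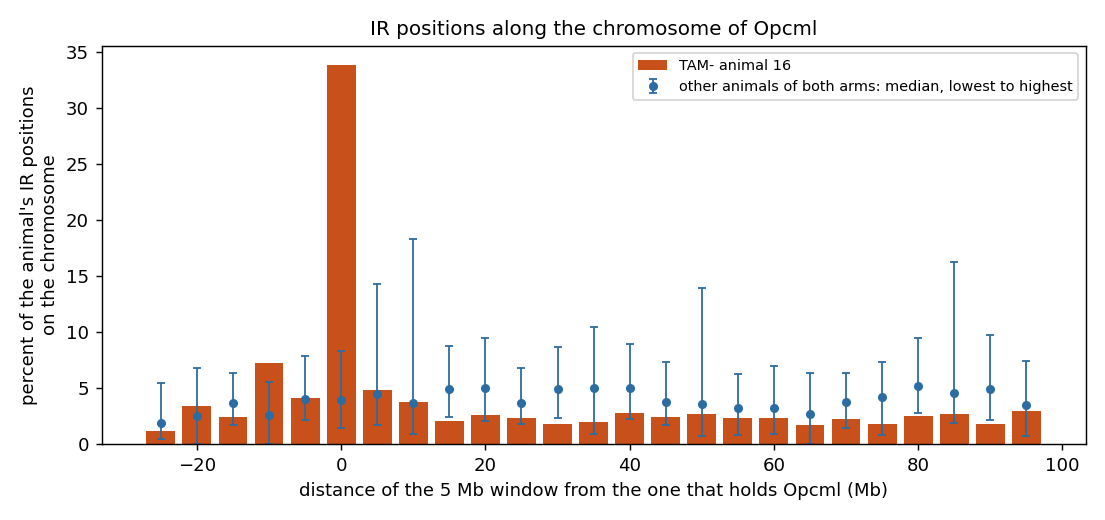
Bars give the percent of the IR positions on chromosome 9 of TAM- animal 16 that fall in each window of 5 Mb, by distance from the window that holds Opcml. Points with lines give the median, lowest and highest percent in the other animals of both arms. The bar of the Opcml window, at 33.9%, stands above the highest value of the others, 8.34%.

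Of the 938 low-count IR positions of Opcml, 528 (56.3%) were listed by TAM- animal 16. With that animal left out, 445 remained in IR, 91 in JX and 119 in PB. Opcml was then hit in 4 animals in JX where low-count positions gave 3.34 (unadjusted recurrence p = 0.432 by the exact Poisson-binomial test). Among the genes with at least 50 low-count IR positions, the animal with the most of them held a median of 6.04% over 38 of the synaptic and long genes and 7.69% over all 3858 genes. It held over 50% in 2 of the 38 (Opcml and Lrrtm3) and in 2.26% of the 3858.

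The other IgLON genes were Lsamp and Negr1. Beside the shared position above, Lsamp had a site in intron 1 in TAM- animal 27, at 0.778% of IR and 0.254% of JX counts. Both JX sites of Negr1 were at shared positions.

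Of the SynCAM adhesion proteins, Cadm2 was hit in JX in 3 TAM+ and 0 TAM- animals (Fisher's exact p = 0.277, adjusted p = 1), 2 of the 3 sites at positions shared over 41 and 91 animals. Not crediting sites to 1 animal made this 4 TAM+ and 0 TAM- animals (Fisher's exact p = 0.152, adjusted p = 1). Summed over Cadm2, JX counts had medians of 16 in TAM+ (0 to 133) and 21 in TAM- animals (0 to 88), so the arms overlapped. Cadm1 had 2 JX sites, both at shared positions. In the NCAM and L1 family, Ncam1, the neural cell adhesion molecule, had a site in intron 1 in TAM- animal 44 at chr9:49466891. It held 3.32% of IR, 3.29% of JX and 1.71% of PB counts, and 2 of 7 control DNAs listed the IR position. Nrcam had 1 JX and 1 PB site, both in TAM+ animals, and 1 of 3 Ncam2 sites in JX was outside shared positions.

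Csmd1, a large membrane protein with CUB and sushi domains, was hit in JX in 5 TAM+ and 3 TAM- animals where low-count positions gave 4.49 (unadjusted exact recurrence p = 0.0723). Outside shared positions 3 TAM+ and 2 TAM- animals remained, where 2.45 were given (p = 0.0932 by the same exact Poisson-binomial test). A site in intron 3 at chr8:16746685 in TAM+ animal 5 was called in all 3 kinds, at 3.85% of IR, 0.0803% of JX and 0.722% of PB counts. Summed over the gene, JX counts ran from 26 over a median of 159 to 1642 in TAM+ and from 52 over 173 to 1239 in TAM- animals. Csmd3 had 2 JX sites, both shared, and 2 PB sites in TAM+ animals.

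Of the teneurins, large adhesion proteins that bind latrophilins, Odz2 had a position with high counts in more than 1 animal of lane 4. At chr11:36211696 in intron 2, TAM+ animal 11 had 165223 IR counts (3.81%) and 1381 JX counts, with 14876 PB counts (3.22%) 60 bp away. The same base held 27171 JX counts (2.85%) in TAM- animal 29, which had 18 IR and 0 PB counts there. In TAM- animal 29 nearly all of them, 27162, were in the left JX library, whereas TAM+ animal 11 had 1378 in the right one. Both animals were sequenced in lane 4, and the part of the lane in this was not tested. The JX hit of Odz2 outside shared positions is credited to TAM- animal 29, and TAM+ animal 11 also reached the call there, at 1.04% of its highest JX site. Odz3 had 1 JX and 1 PB site.

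Rbfox1, which encodes a neuronal splicing regulator, was credited with the most animals of these genes in JX. There 7 TAM+ and 4 TAM- animals were hit where low-count positions gave 4.97 (unadjusted recurrence p = 0.00794, adjusted p = 1, exact Poisson-binomial test). Of its 11 JX sites 8 were at shared positions, and outside them 1 TAM+ and 2 TAM- animals remained where 2.79 were given (p = 0.536 by the same exact test). With every animal that reached the call counted, 24 TAM+ and 16 TAM- animals had a JX site in Rbfox1, fewer than the 45 and 33 in Lsamp or the 38 and 28 in Nlgn1. In IR it was hit in 2 TAM+ and 1 TAM- animals where 1.74 were given (Fisher's exact p = 1). Its strongest site, in intron 1 at chr16:6124052 in TAM- animal 39, held 371047 IR counts (11.02%), 4006 JX counts (1.63%) and, 74 bp away, 6403 PB counts (9.83%). Summed over Rbfox1, JX counts had medians of 332 in TAM+ (64 to 1357) and 394 in TAM- animals (143 to 4346).

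Dmd showed the same drop. It was hit in JX in 6 TAM+ and 2 TAM- animals where low-count positions gave 4.14 (unadjusted recurrence p = 0.0487 by the exact Poisson-binomial test). Outside shared positions 1 TAM+ and 1 TAM- animals remained where 2.41 were given. With every animal that reached the call counted, the numbers for Dmd were 31 TAM+ and 25 TAM- animals (Fisher's exact p = 0.348). It had 0 called sites in IR and PB, although all 119 animals listed IR positions in it. Macrod2, which removes ADP-ribose from proteins, was hit in JX in 4 TAM+ and 1 TAM- animals where 4.35 were given, with 4 of 5 sites shared. Lrp1b, a giant lipoprotein receptor, was hit in 3 TAM+ and 2 TAM- animals where 3.82 were given, with 3 of 5 sites shared. Macrod2 and Lrp1b had 0 called sites in IR and PB as well. Summed over the gene, Lrp1b held 5042 JX counts in 1 TAM- animal (0.471% of the animal's JX counts), its highest level in either arm. The credited JX sites of Lrp1b reached at most 0.0875% of an animal's JX counts.

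The credited sites outside shared positions were joined into loci, where such sites of 1 animal in 1 gene lay within 500 bp. This gave 96 loci, 60 of them in 28 TAM+ animals and 36 in 15 TAM- animals. TAM- animal 16 held 14 of those 36, 11 of them in Opcml, and without it 22 TAM- loci remained. Of the 96 loci, 9 had credited sites in all 3 kinds of library, 3 in TAM+ and 6 in TAM- animals, and 5 in 2 kinds. The other 82 had them in 1 kind, 11 in IR, 47 in JX and 24 in PB. Among the 5, Odz2 in TAM+ animal 11 also reached the call in JX, where the site was credited to another animal. In 12 loci the share reached 1% of the animal's counts in at least 1 kind.

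**Figure D5:**
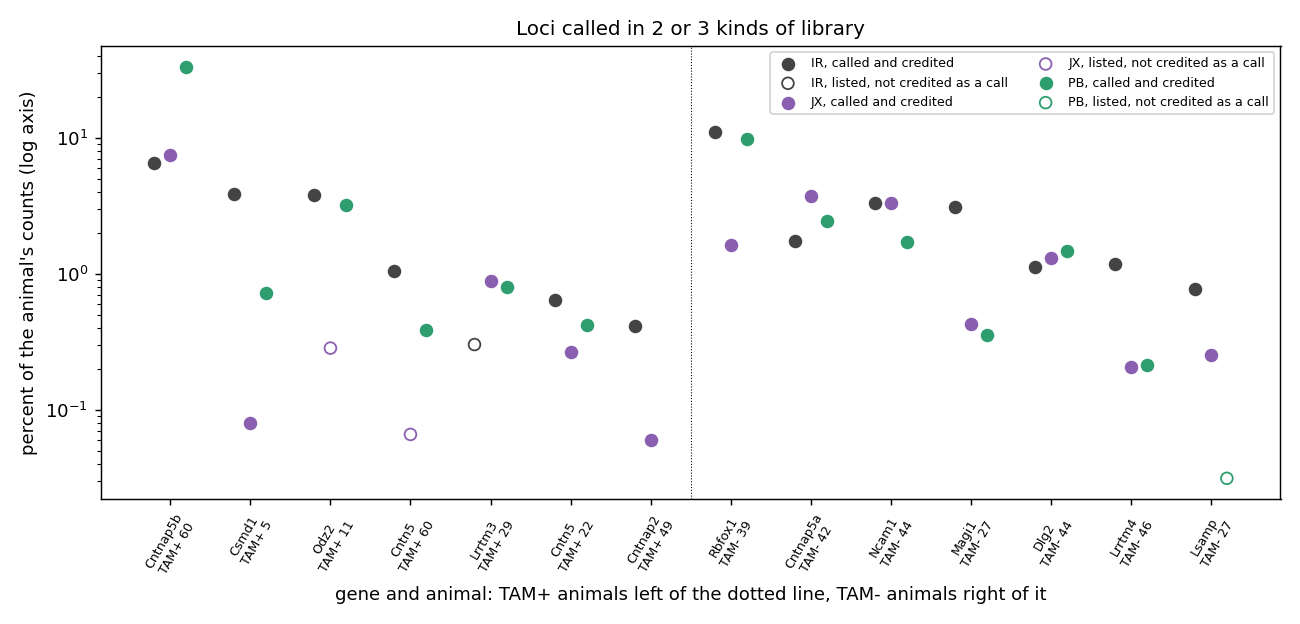
The 14 loci with credited sites in 2 or 3 kinds of library are shown. The log axis gives their percent of the animal's IR, JX and PB counts, with TAM+ animals on the left. Filled points were called and credited to the animal, and open points were listed there without being credited as a call. Cntnap5b in TAM+ animal 60 reaches 33.3% in PB, and Rbfox1 in TAM- animal 39 reaches 11.02% in IR.

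The sites lay mostly in introns, as the low-count positions did. Of the called sites 24 of 25 were intronic in IR, 104 of 123 in JX and 35 of 37 in PB. The shares were 96.0%, 84.6% and 94.6%, where 88.5%, 85.7% and 86.8% of the genes' low-count positions were intronic. Exons held 0 IR sites, 3 JX sites (Lrrc4c, Lrrtm3 and Odz2) and 1 PB site (Lrrtm3).

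Orientation gave no call. The table labels a position as the same as or opposite to the gene, and the labels were the same for 15 of 24 IR sites inside the genes, 56 of 107 JX sites and 14 of 36 PB sites. These were 62.5% (exact 95% interval 40.6 to 81.2%), 52.3% (42.5 to 62.1%) and 38.9% (23.1 to 56.5%), and each interval included 50%. Single genes with at least 6 sites were tested with the two-sided exact binomial test, which left 4 genes for JX and 0 for IR or PB. The 4 were Opcml (6 same, 7 opposite), Csmd1 (5 and 5), Rbfox1 (4 and 6) and Dmd (6 and 2), with unadjusted p between 0.289 and 1 and 0 called. Over all genes 12.5% of 8 tested were called in IR, and 0% of 22 and 0% of 14 in JX and PB. Without adjustment the shares over all genes were 12.5%, 4.55% and 7.14%. The label depends on the library: where an IR and a PB site of 1 animal lay within 500 bp in these genes, the labels were opposite in 10 of 10 pairs, and in 589 of 596 pairs in other genes (98.8%). For IR with JX they were opposite in 1 of 10 and 79 of 544 pairs, so orientation was not pooled over kinds.

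A further 39 synaptic adhesion genes outside the set, all with positions, were given the same tests. Called sites were found in 6 of them for IR, 10 for JX and 7 for PB. Summed, 8 hits of an animal were observed in IR where low-count positions gave 8.75, 18 in JX where they gave 23.8 and 8 in PB where they gave 11.4. None passed the recurrence test in any kind, and of the 2 tested between arms, both in JX, 0 were called. Over the 3 kinds, Cntnap3 was hit in 3 TAM+ and 1 TAM- distinct animals, Sdk1 in 3 and 0, Il1rapl2 in 2 and 0, Nfasc and Sdk2 in 1 and 1 each, and Clstn2 in 0 and 2. In JX, Cntnap3 was hit in 3 TAM+ and 1 TAM- animals where 0.948 were given, and in IR in 1 and 1. Clstn2 was hit in the same number of animals, 0 TAM+ and 2 TAM-, in each kind.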

How the data were processed

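Sheared genomic DNA of Lazy Piggy tumours was joined to splinkerette adaptors, cut with BamHI and amplified from the SB part (IR), the PB part (PB) or their boundary (JX), per the labels' protocols. The authors deposited 1 table of raw counts per insertion position and library (3961094 lines, 832 libraries, 9 lanes) and a sample sheet. Coordinates are mm9 according to the submitters' processing notes. No source used here names the aligner, counting rule, annotation or filters. From these counts, positions within 10 bp were merged after summing left and right ends and, for 7 animals, 2 lanes, and sites were called, credited and tested as the text describes. Nothing says whether animals shared a litter. For 1 animal, spellings differing by a leading zero were treated as the same. Tests were two-sided Fisher's exact, one-sided exact Poisson-binomial from the share of low-count positions, and exact binomial for orientation, each adjusted over all genes of a kind of library at 0.05 (Python 3.11.15, scipy 1.17.1, pandas 2.3.3). The tests were tried on simulated data.

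The genes, lists and tests were chosen with earlier results of these data known. Full values were given for genes with at least 4 credited animals in any kind of library, for the 2 with the lowest Fisher p per kind and for any past a threshold, and the other genes are given in counts with their strongest sites. Of the 39 further genes the 4 with most hits summed over the kinds were to be named, with ties, and 1 of them is not reported here. Alternatives were the site call at 0.1% or 5% of the highest site, a count minimum of 100, merging within 100 bp, gene bodies only, leaving out 1 animal, shared positions or donor chromosomes, chromosome 10 animals only and, added after seeing the data, every animal that reached the call counted. No insertion sequence is printed, since no mm9 genome was used here.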

Additional observations from a re-analysis of the deposited data

Results flagged for a closer look

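Called sites in the genes were counted in the same way in the animals outside the arms. Single animals stood far from the rest of their group by Dixon's criterion. The groups were small and many of their values were 0, so how often chance alone meets the criterion here is not known. In IR 1 of the 5 control tumours had 17 such sites, where the others had 0, 0, 0 and 1. All but 1 of the 18 IR sites of the control tumours lay at positions shared over animals. In JX 1 control tumour had 23 sites and the others 0, 0, 2 and 4, with 1 of the 29 outside shared positions. Among the 8 animals with no usable arm, 1 had 6 IR sites where the others had 0. In PB 1 of these 8 had 4 sites, where the others had 0 or 1, and 0 of those sites lay at shared positions. The control DNA libraries listed 62 of the 64 shared JX positions in the genes.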

How the results depend on the processing

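A mean per animal counted as moved only where it changed by at least the SD between animals. That SD was larger than each mean, so a mean could fall to 0 and still count as unmoved. In 201 of 210 comparisons of a summary value with an alternative, the value moved by less than the spread or kept its count, and 9 moved. Of these, 7 came from calling sites at 0.1% of the highest site. Called sites in the genes per animal then averaged 2.85 in TAM+ and 0.957 in TAM- animals (IR). The means were 3.85 and 4.57 for JX, and 3.01 and 2.62 for PB. The share of JX sites in the genes at shared positions was then 35.4%. The other 2 came from counting every animal that reached the call in place of the credited one, which gave 7.07 JX sites per TAM+ and 7.83 per TAM- animal. The number of genes past the Fisher, recurrence or orientation threshold was 0 in each kind of library under each alternative run for it. An unadjusted recurrence p under 0.05 was found in JX for 3 genes at first, and for 0 to 3 under the alternatives. Among numbers of animals for single genes, 43 of 121 comparisons moved by over 1.5 times. The alternatives that leave out the animal with the most sites in the genes outside shared positions, or the animal with the most listed positions in Opcml, or that count every animal reaching the call, were chosen after seeing the data. Without TAM- animal 16, the one with the most positions in Opcml, 57.1% of the JX sites in the genes were at shared positions, and the genes held 1.43% of the low-count IR positions. No paired analysis was possible because the lanes, not the animals, carry the replicate numbers. PB depth went down to 1714 counts in 1 animal, which limits what calls there can mean. The call is relative to the highest site of an animal, so sites with few counts were called in shallow libraries. With a count minimum of 100, the sites in the genes fell from 37 to 24 in PB and from 123 to 77 in JX. In IR they stayed at 25. Annotation, aligner and strand could not be varied.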
